A study of Homo sapiens with 9 samples.

Results

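Chromatin accessibility was examined at 9 genes that make, store, release or take up catecholamines in neuroblastoma cells: TH, DBH, DDC, PNMT, SLC18A1, SLC18A2, SLC6A2, CHGA and CHGB. A region of the deposited ATAC-seq count table was taken when its centre lay inside the GRCh38 span of one of these genes or within 50 kb of either end, which gave 130 of 148797 regions. Of these, 9 lay at a start or end of the gene itself (a start site or gene end within 1 kb), 8 lay at the start or end of another gene, and 113 were distal. The filter on low counts passed 117 of the 130 and left out 13, none of which held more than 24 counts in any library.

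The cells were SK-N-BE(2)c, an established human neuroblastoma line of the adrenergic type that carries amplified MYCN. Each of 3 groups held 3 libraries, and every group was transfected by lipofection with an antisense oligonucleotide at 100 nM and collected after 48 h, so that no group was untransfected. NCA is the negative control oligonucleotide, and ASO2 and ASO10 are oligonucleotides directed at NESPR, a long noncoding RNA of adrenergic neuroblastoma cells. The line is a single line, no RNA was measured in these libraries, and the level of NESPR itself was not analysed here. ATAC-seq uses the Tn5 transposase to cut and tag open DNA, so that the count of a region reflects how accessible it was. The labels do not say that the libraries of a group came from separate cultures, so p-values measure the spread between these libraries, which may be technical.

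Catecholamines are made in a short chain of steps. TH (tyrosine hydroxylase) turns tyrosine into L-DOPA and is the rate-limiting enzyme, DDC (aromatic L-amino acid decarboxylase) turns L-DOPA into dopamine, DBH (dopamine beta-hydroxylase) turns dopamine into noradrenaline inside vesicles, and PNMT methylates noradrenaline to adrenaline. SLC18A1 and SLC18A2 (the vesicular monoamine transporters) load amines into vesicles, SLC6A2 (the noradrenaline transporter) takes released noradrenaline back into the cell, and the granins CHGA and CHGB are the main soluble proteins of the dense-core granules. Sympathetic neurons, adrenal chromaffin cells and most neuroblastomas use much of this machinery, though not every one of these cell types uses every step. Its products are measured in the clinic as markers of the tumour.

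RefSeq promoter sequences (GRCh38.p14, 250 bases before to 50 bases after the start) are shown for 3 of the 9 genes, DBH, DDC and SLC18A2. They are shown because these are starts at which accessibility was compared, and because the cyclic AMP response element is a classical feature of genes of this pathway. Capitals mark TGACGT, the conserved part of that element, or its reverse complement ACGTCA.
DBH, chr9:133636113-133636412, plus strand: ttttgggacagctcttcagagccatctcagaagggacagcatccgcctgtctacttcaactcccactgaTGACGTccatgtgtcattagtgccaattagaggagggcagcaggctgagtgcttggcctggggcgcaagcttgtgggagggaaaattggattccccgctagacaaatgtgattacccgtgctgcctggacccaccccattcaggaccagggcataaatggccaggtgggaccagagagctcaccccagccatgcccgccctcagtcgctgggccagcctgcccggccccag
DDC, chr7:50561022-50561321, minus strand: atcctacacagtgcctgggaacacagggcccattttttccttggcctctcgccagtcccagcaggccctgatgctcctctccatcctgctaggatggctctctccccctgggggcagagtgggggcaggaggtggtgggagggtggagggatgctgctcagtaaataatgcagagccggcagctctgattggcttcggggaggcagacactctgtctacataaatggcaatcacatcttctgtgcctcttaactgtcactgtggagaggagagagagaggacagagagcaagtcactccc
SLC18A2, chr10:117240864-117241163, plus strand: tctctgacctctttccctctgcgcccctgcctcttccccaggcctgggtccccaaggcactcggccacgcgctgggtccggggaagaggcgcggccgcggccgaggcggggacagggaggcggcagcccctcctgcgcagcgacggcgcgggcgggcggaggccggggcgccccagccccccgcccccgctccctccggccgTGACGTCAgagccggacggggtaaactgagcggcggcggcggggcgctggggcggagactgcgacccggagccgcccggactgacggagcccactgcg
TGACGT, searched on both strands, was present in 2 of these 3 promoters. It began 181 bases before the start site in DBH, and matches on the 2 strands overlapped in SLC18A2 (48 and 46 bases before the start). The letters occur in 7.98% of 35116 RefSeq promoters of the same length. The windows of DBH and DDC lay wholly inside a deposited region, and 117 of the 300 bases of the SLC18A2 window did. GC content was 59.3% in the DBH window, 57.3% in DDC and 78.7% in SLC18A2, beside a median of 58.7% over all promoters. CCAAT was found in DBH and DDC; it is present in 34.6% of the promoters. A match of letters is a description and not a binding site.

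At the starts or ends of the genes, none of the 9 regions passed in any comparison by the quasi-likelihood test of edgeR. Its p-values were adjusted by Benjamini-Hochberg over all 119417 tested regions. The 9 include a region at the end of SLC6A2 opposite its known start. At an unadjusted p under 0.05 there was 1 region for ASO2 against NCA, 2 for ASO10 against NCA, 4 for ASO2 against ASO10 and 0 for both ASOs against NCA, of 9 each, where 10.6%, 17.4%, 20.4% and 12.4% of all start regions had one. None of the 9 had an adjusted p under 0.05 by DESeq2. By adjusted p, 1.63%, 2.09%, 3.37% and 1.37% of all tested regions at gene starts were called, in the same order. The median log2 fold change over the 9 regions was -0.0052 for ASO2 and 0.024 for ASO10 against NCA, beside -0.048 and 0.088 over all start regions. Values of single libraries are in CPM, the count of a region scaled to a common library total, with library sizes adjusted by TMM (trimmed mean of M values).

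**Figure D1:**
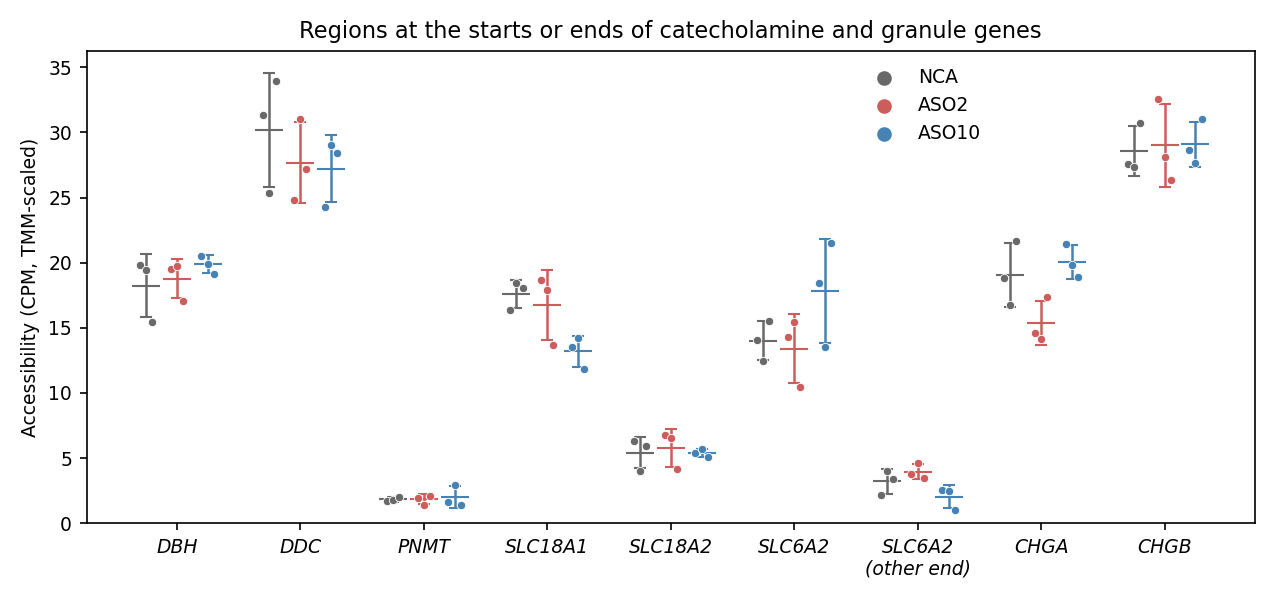
Accessibility in CPM (vertical axis) of the 9 regions at a start or end of a catecholamine or granule gene (horizontal axis), with 1 point per library, bars for the mean and whiskers for the SD of 3 libraries. The ASO libraries overlap the NCA libraries at the other regions; at SLC18A1 the ASO10 libraries, 11.8 to 14.2 CPM, lie below the NCA libraries, 16.4 to 18.4 CPM.

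Among the enzymes, the region at the DBH start (chr9:133635355-133636581) held 19.8, 19.4 and 15.4 CPM in the NCA libraries, 19.5, 19.7 and 17.1 under ASO2, and 20.5, 19.9 and 19.1 under ASO10. The groups overlapped, and the log2 fold change against NCA was 0.04 ± 0.15 (SE) for ASO2 and 0.13 ± 0.15 for ASO10. The DDC start that lay in a region (chr7:50560189-50561564) held 31.3, 25.3 and 33.9 CPM under NCA, 24.8, 31.0 and 27.2 under ASO2, and 24.3, 29.0 and 28.4 under ASO10. These groups also overlapped, with log2 fold changes of -0.12 ± 0.13 (edgeR adjusted p = 0.704) and -0.15 ± 0.13 (adjusted p = 0.746). The other DDC start, 7:50565405, had no region, and the nearest began 2.188 kb away. At PNMT, the last enzyme of the chain, the region (chr17:39668124-39668348) was among the weakest, at 1.83 ± 0.192 CPM (SD, n = 3) under NCA, 1.82 ± 0.378 under ASO2 and 2.01 ± 0.827 under ASO10.

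TH, the enzyme that starts the chain, had no region within 1 kb of either end of its span (11:2163929-2171815). The nearest lay inside the gene, 2.101 kb from the high-coordinate end (2169356 to 2169714) and 2.387 kb from the low-coordinate end (2166316 to 2166560). They held 1.77 ± 0.511 and 1.03 ± 0.595 CPM under NCA (SD, n = 3), which is low beside the start regions of DBH and DDC. TH is transcribed from its high-coordinate end, as is generally known.

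SLC18A1 is a vesicular transporter. Its region (chr8:20182898-20183624) held 16.4, 18.4 and 18.0 CPM under NCA, 18.7, 17.9 and 13.7 under ASO2, and 13.5, 14.2 and 11.8 under ASO10. All 3 ASO10 libraries were below all 3 NCA libraries, while ASO2 overlapped both NCA and ASO10. How many start regions of all genes separate in this way was not counted. The log2 fold change for ASO10 was -0.41 ± 0.16, with an unadjusted p of 0.0112 and an adjusted p of 0.258 by edgeR, so it did not pass. At SLC18A2 the start region (chr10:117241047-117242078) held 5.42 ± 1.21 CPM in NCA libraries, 5.80 ± 1.45 with ASO2 and 5.39 ± 0.305 with ASO10 (SD, n = 3), and the groups overlapped.

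For SLC6A2, a region at its low-coordinate end (chr16:55655652-55656318), where its transcription is known to begin, held 14.0, 12.5 and 15.5 CPM under NCA, 14.3, 15.5 and 10.5 under ASO2, and 18.4, 13.5 and 21.5 under ASO10. Both comparisons with NCA overlapped, and ASO2 minus ASO10 was -0.41 ± 0.16 on the log2 scale (edgeR adjusted p = 0.160). At the other end of SLC6A2 a region (chr16:55706963-55707299) held 3.21 ± 0.937 CPM under NCA, 3.96 ± 0.584 under ASO2 and 2.04 ± 0.867 under ASO10. There all ASO2 libraries lay above all ASO10 libraries, and ASO2 minus ASO10 was 0.94 ± 0.39 (adjusted p = 0.194), opposite in sign to the low-coordinate end.

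For the granins, the CHGA start (chr14:92922693-92924150) held 18.8, 16.8 and 21.7 CPM under NCA, 14.6, 14.2 and 17.3 under ASO2, and 21.5, 19.8 and 18.9 under ASO10. All ASO2 libraries lay below all ASO10 libraries, but ASO2 overlapped NCA. The log2 fold change was -0.31 ± 0.15 against NCA (edgeR adjusted p = 0.290) and -0.38 ± 0.15 against ASO10 (adjusted p = 0.180). The CHGB start (chr20:5910940-5912013) was at 28.6 ± 1.90 CPM under NCA, 29.0 ± 3.21 under ASO2 and 29.1 ± 1.72 under ASO10, with log2 fold changes against NCA of 0.01 ± 0.13 and 0.02 ± 0.13.

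Levels differed more between genes than between groups. Per kb of region, under NCA, CHGB was highest at 26.6 ± 1.77 CPM per kb (SD, n = 3), followed by SLC18A1 at 24.2 ± 1.50, DDC at 21.9 ± 3.20 and SLC6A2 at 21.0 ± 2.30. DBH stood at 14.9 ± 1.98 and CHGA at 13.1 ± 1.69, and the lowest were the other end of SLC6A2 at 9.52 ± 2.78, PNMT at 8.12 ± 0.851 and SLC18A2 at 5.25 ± 1.18. In this order SLC18A1, DDC and SLC6A2 overlapped in their libraries with their neighbours, as did DBH with CHGA and CHGA, the other end of SLC6A2 and PNMT in turn; CHGB lay above SLC18A1, SLC6A2 above DBH, and PNMT above SLC18A2 in every NCA library. The median over 14846 regions at gene starts was 12.3 CPM per kb, so that CHGB exceeded 89.4% of them and SLC18A2 exceeded 9.45%. Copy number of these loci was not examined. Across the 9 libraries the pair of start or end regions most alike in log2 CPM, of 36 pairs, was SLC18A1 and the other end of SLC6A2 (Pearson r = 0.774). The libraries share their groups, and this is a description.

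Of the 117 tested regions 6 were called in at least 1 comparison, none of them at a start of the 9 genes: 3 around DDC, 1 inside SLC6A2 and 2 near CHGB. For ASO2 against NCA, 3 were higher and 0 lower, while 4.79% of all tested regions were called higher and 0.808% lower. For ASO10 against NCA, 0 were higher and 2 lower, against 0.876% and 0.210%. Between ASO2 and ASO10, 4 were higher under ASO2 and 0 lower, against 2.54% and 0.682%. For the average of both ASOs against NCA, 1 was higher and 1 lower, against 2.40% and 0.594%. The ASO2 split depended on the processing. With total counts 3 were higher and 2 lower, and with loess offsets 2 were higher and 3 lower, the lower ones lying in DDC and near CHGA. RLE factors kept 3 higher and 0 lower. A minimum of 10 counts in every library gave 4 higher and 3 lower, and only the groups compared gave 3 and 2. With 1 library left out, 0 or 1 was lower. Over the whole table, loess offsets moved the share of calls that were higher from 85.6% to 77.8% for ASO2, from 80.6% to 59.3% for ASO10 and from 80.2% to 70.0% for both ASOs.

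**Figure D2:**
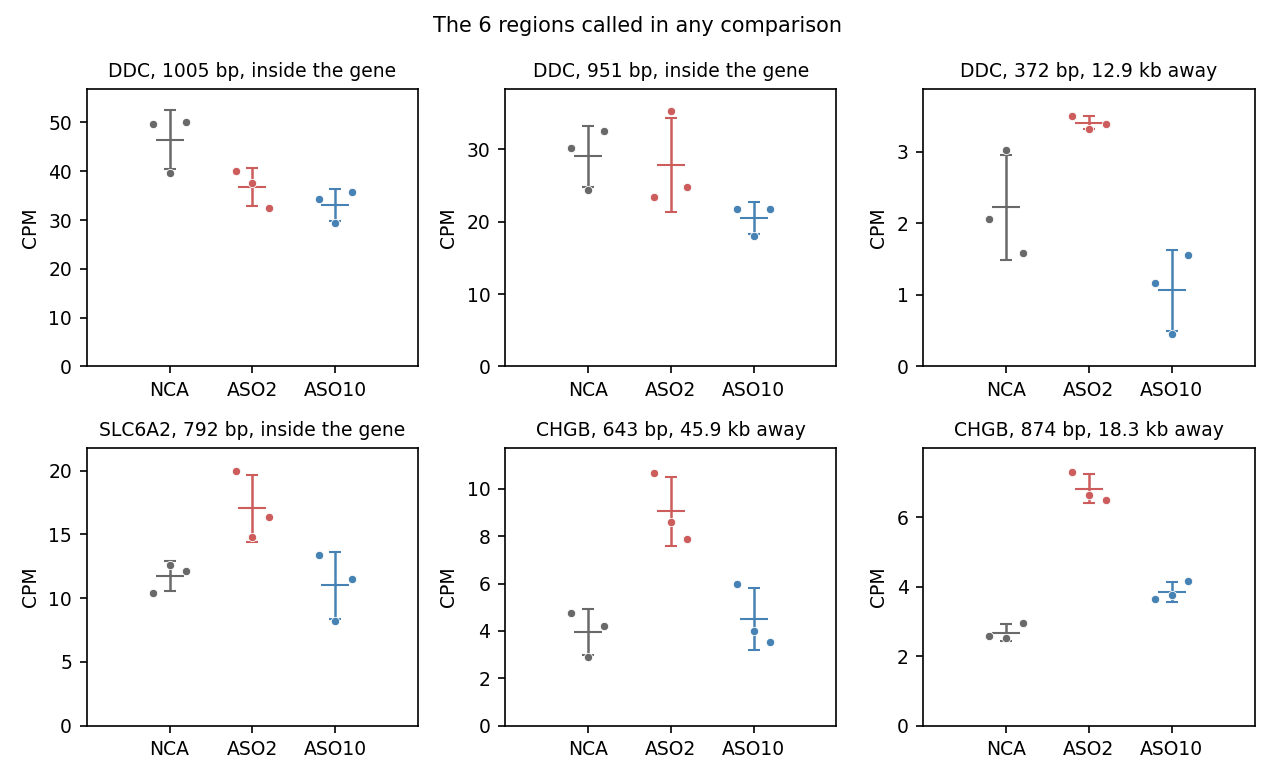
Accessibility in CPM (vertical axis, starting at 0) in NCA, ASO2 and ASO10 libraries for the 6 regions called in any comparison, with 1 point per library, bars for the mean and whiskers for the SD of 3 libraries. The first DDC panel runs from 46.5 CPM under NCA to 33.1 under ASO10, and the last CHGB panel rises to 6.82 CPM under ASO2.

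DDC held 2 of these regions in its gene body that were lower under ASO10. The region chr7:50507912-50508916, per kb above 99.6% of the 133951 distal regions of the table, held 49.7, 39.6 and 50.2 CPM under NCA, 40.0, 37.7 and 32.4 under ASO2, and 34.2, 29.4 and 35.7 under ASO10. Every ASO10 library lay below every NCA library, and 1 ASO2 library lay within the NCA range. It fell under ASO10 by 0.49 ± 0.12 on the log2 scale (edgeR adjusted p = 0.0122) and over both ASOs by 0.42 ± 0.10 (adjusted p = 0.00465). For ASO2 alone the log2 fold change was -0.35 ± 0.12 (adjusted p = 0.0644), and ASO2 minus ASO10 was 0.15 (adjusted p = 0.641). The ASO2 value passed with total counts (0.0354), loess offsets (0.0278), a minimum of 10 counts in every library (0.0137), only the groups compared (0.0490) or without NCA 2 (0.0233). The ASO10 call was lost without NCA 1 (adjusted p = 0.145), NCA 3 (0.150), ASO10 1 (0.0718) or ASO10 2 (0.203), and the call over both ASOs without NCA 1 (0.109) or NCA 3 (0.122), with log2 changes of the same sign each time.

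The second DDC region, chr7:50531541-50532491, held 30.1, 24.3 and 32.6 CPM under NCA, 23.4, 35.3 and 24.8 under ASO2, and 21.8, 18.0 and 21.7 under ASO10. All ASO10 libraries were below the others, and ASO2 overlapped NCA because its libraries ran from 23.4 to 35.3. It fell under ASO10 by 0.50 ± 0.14 (edgeR adjusted p = 0.0329), stood at -0.06 for ASO2 (adjusted p = 0.886), and differed between the ASOs by 0.45 ± 0.14 (adjusted p = 0.0411). Without ASO2 2 the difference between the ASOs was 0.23 (adjusted p = 0.549). That call was also lost without NCA 1 (0.0527), NCA 3 (0.0508), ASO10 1 (0.0851), ASO10 2 (0.303) or ASO10 3 (0.0930), by DESeq2 (0.128) and with no filter (0.0679). The ASO10 call was lost without NCA 1 (0.168), NCA 3 (0.293), ASO2 1 (0.0512), ASO10 1 (0.104), ASO10 2 (0.299) or ASO10 3 (0.0948), by DESeq2 (0.0671) and with no filter (0.0623). Over both ASOs it was at -0.28 (adjusted p = 0.208) and passed with loess offsets (-0.35, 0.0387).

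By CPM the strongest DDC region was chr7:50496544-50498432, also inside the gene. It held 49.8 ± 2.71 CPM under NCA, 51.2 ± 2.02 under ASO2 and 47.5 ± 4.03 under ASO10. The groups overlapped (log2 fold change -0.07 ± 0.12 under ASO10, edgeR adjusted p = 0.891). Per kb under NCA it held 26.3 CPM, less than the regions called lower under ASO10, at 46.3 and 30.5. A weak region 12.9 kb outside the gene, chr7:50578083-50578454, held 2.06, 3.03 and 1.59 CPM under NCA, 3.51, 3.33 and 3.39 under ASO2, and 1.17, 0.455 and 1.56 under ASO10. Here all ASO2 libraries were above the rest, and all ASO10 libraries were below the others. ASO2 minus ASO10 was 1.68 ± 0.49 as a log2 difference (adjusted p = 0.0261), and neither ASO passed against NCA. The call was lost without ASO2 1 (0.0891), ASO2 2 (0.0790), ASO2 3 (0.0833), ASO10 1 (0.0755) or ASO10 2 (0.230), where the difference ran from 1.31 to 1.77.

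**Figure D3:**
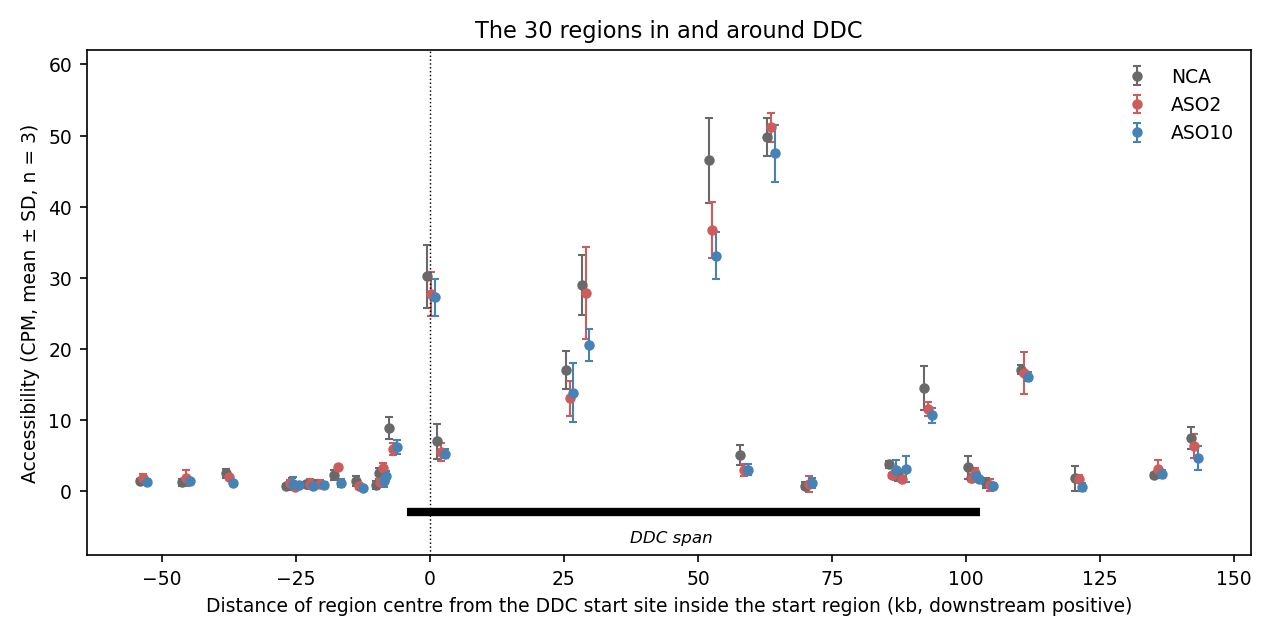
Mean accessibility in CPM (vertical axis, whiskers are SD, n = 3) of the 30 regions in and around DDC, by distance in kb of the region centre from the DDC start site that lies in a region (horizontal axis, downstream positive), with the gene span as a black bar. The start region and the strongest region inside the gene, near 50 CPM, lie close together for all groups, while the 2 regions called lower under ASO10 show the ASO10 points below the NCA points.

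In SLC6A2, a region inside the gene (chr16:55661775-55662566) held 10.4, 12.6 and 12.1 CPM under NCA, 19.9, 14.8 and 16.3 under ASO2, and 13.4, 8.19 and 11.5 under ASO10. All ASO2 libraries were above all the others, and ASO10 overlapped NCA. It rose under ASO2 by 0.53 ± 0.17 on the log2 scale (edgeR adjusted p = 0.0420) and was higher than under ASO10 by 0.62 ± 0.17 (adjusted p = 0.0170). The call against NCA was lost by DESeq2 (0.113), with loess offsets (0.0652), with no filter (0.0533) and without NCA 1 (0.229), NCA 2 (0.0718), NCA 3 (0.0897), ASO2 1 (0.296), ASO2 3 (0.0771) or ASO10 3 (0.0536). The call between the ASOs was lost by DESeq2 (0.0595) and without ASO2 1 (0.205), ASO10 2 (0.299) or ASO10 3 (0.0569). The strongest distal region of SLC6A2 (chr16:55652129-55652897), with its centre 3.475 kb before the low-coordinate end, passed in no comparison. It held 32.5 ± 7.68 CPM under NCA, 28.6 ± 2.77 under ASO2 and 33.7 ± 2.58 under ASO10.

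Near CHGB, the 2 regions called higher under ASO2 lay well away from the gene. The region chr20:5892789-5893662, 18.3 kb from CHGB, held 2.58, 2.52 and 2.95 CPM under NCA, 7.30, 6.65 and 6.51 under ASO2, and 3.64, 3.75 and 4.17 under ASO10. The 3 groups did not overlap. It rose under ASO2 by 1.34 ± 0.31 on the log2 scale (edgeR adjusted p = 0.00106), while the ASO10 change was 0.51 ± 0.33 (adjusted p = 0.617) and the difference between the ASOs 0.82 (adjusted p = 0.113). Over both ASOs it was higher by 0.93 ± 0.29 (adjusted p = 0.0437), and this call was lost when any 1 of the 9 libraries was left out: adjusted p was 0.170, 0.178 and 0.0964 without NCA 1, 2 and 3, 0.0895, 0.0777 and 0.0663 without ASO2 1, 2 and 3, and 0.0588, 0.0592 and 0.0889 without ASO10 1, 2 and 3. It was also lost with total counts (0.0536) and with no filter (0.0535).

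The other CHGB-side region, chr20:5865325-5865967, lies at an end of SHLD1, a gene of DNA repair, 45.9 kb from CHGB, so it is not distal by the definition used. It held 4.77, 2.90 and 4.20 CPM under NCA, 10.7, 8.58 and 7.89 under ASO2, and 5.98, 3.98 and 3.52 under ASO10, and all ASO2 libraries were above all the others. It rose under ASO2 by 1.18 ± 0.26 (edgeR adjusted p = 0.000503) and was higher than under ASO10 by 0.99 ± 0.26 (adjusted p = 0.00874). The second call was lost without ASO2 1 (0.113), ASO10 2 (0.0823) or ASO10 3 (0.110). The CHGB start itself was at 28.6, 29.0 and 29.1 CPM in the 3 groups.

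The signs of the distal regions were mixed within most genes, and no test was made of the group. Of 100 tested distal regions, 61 had a negative log2 fold change for ASO2 and 65 for ASO10, against 51.1% and 52.5% of all distal regions tested. The median was -0.26 for ASO2 and -0.15 for ASO10, beside -0.015 and -0.030 over all distal regions. DDC gave 19 of its 24 tested distal regions negative under ASO10 and 14 of 24 under ASO2, and TH gave 8 of 9 negative under ASO2. CHGA, with 16 tested distal regions, had 10 negative under each ASO. SLC18A1 had 5 of 9 positive under ASO2 (median 0.22), and DBH had 6 positive and 6 negative under ASO2 and 7 of 12 positive under ASO10. PNMT had 3 positive and 3 negative under ASO10. Among distal regions, ASO2 gave 2 higher calls and 0 lower, and ASO10 gave 2 lower and 0 higher. Over all tested regions, distal or not, 4.79% were called higher and 0.808% lower under ASO2. Under ASO10 these shares were 0.876% and 0.210%. The ASO2 and ASO10 comparisons share the NCA libraries, so that their values are not independent of each other.

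**Figure D4:**
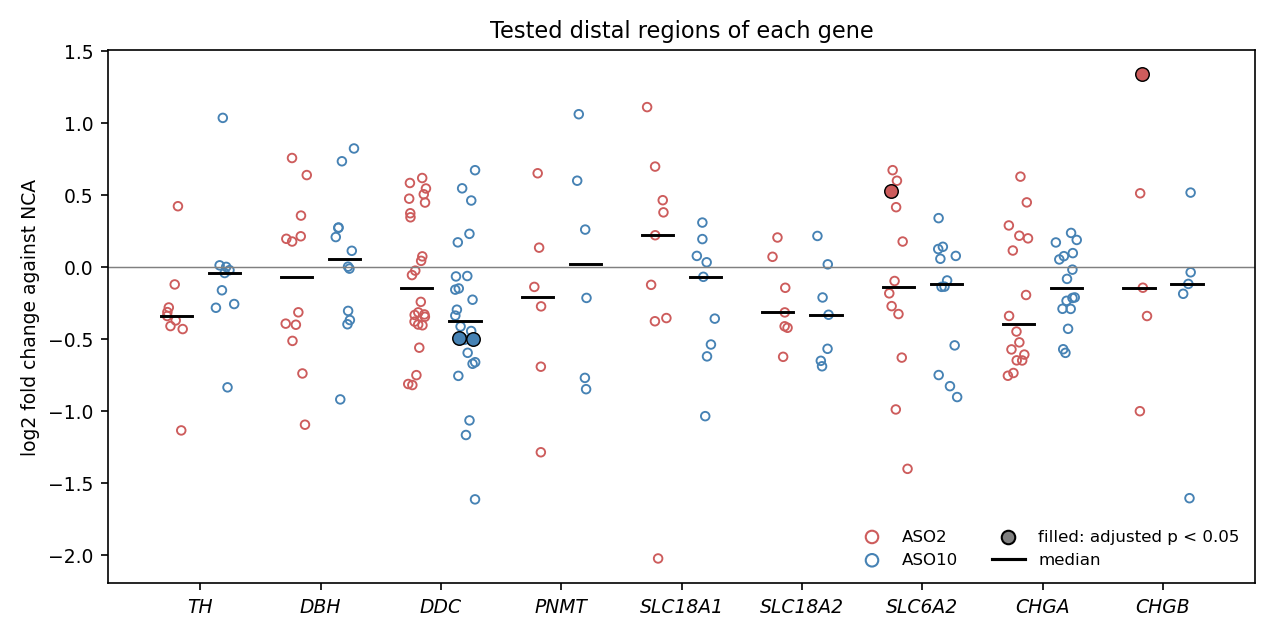
Log2 fold change against NCA (vertical axis) of the tested distal regions of each gene (horizontal axis), red for ASO2 and blue for ASO10, with filled points for an adjusted p under 0.05 and black bars for the medians. Most points are open; the filled ones are 2 DDC regions under ASO10, 1 SLC6A2 region and 1 CHGB region under ASO2.

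To compare the genes one by one, the counts of all distal regions of a gene were summed, and the sums were tested over 18557 protein-coding genes with the same library sizes. For ASO2 against NCA, 2 of the 9 genes were lower (TH and DDC) and 0 higher, where 3.64% of all genes were lower and 6.95% higher. For ASO10 against NCA, 2 were lower (DDC and SLC18A2) and 0 higher, where 1.12% were lower and 1.91% higher. For ASO2 against ASO10, 1 was higher (DDC) and 0 lower, where 6.00% were higher and 2.33% lower. Over both ASOs, DDC and SLC18A2 were lower and 0 higher, where 2.64% were lower and 3.95% higher. Neighbouring genes can share regions, so genes are not independent of each other. In bulk cells, fewer cells with an open site and less opening per cell cannot be told apart.

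DDC, the decarboxylase, had the smallest adjusted p of the 9 genes under ASO10. Its 28 distal regions summed to 227.6, 203.5 and 221.4 CPM under NCA, 192.1, 204.3 and 183.9 under ASO2, and 179.6, 157.5 and 176.8 under ASO10. All ASO10 libraries lay below all ASO2 and all NCA libraries, and 1 ASO2 library lay within the NCA range. The sum fell under ASO10 by 0.35 ± 0.059 on the log2 scale (edgeR adjusted p = 8.9e-06), that is by 21.3%, and over both ASOs by 0.26 ± 0.050 (adjusted p = 6.8e-05); both calls held in every alternative run. With the called regions left out, a choice made after the data were seen, the ASO10 change was -0.26 (adjusted p = 0.00802). Under ASO2 it fell by 0.17 ± 0.058 (adjusted p = 0.0400), a call that was lost without NCA 1 (0.219), NCA 3 (0.114), ASO2 1 (0.114) or ASO2 3 (0.198) and without the called regions (0.111). ASO2 minus ASO10 was 0.18 ± 0.059 (adjusted p = 0.0407), which was lost without ASO2 1 (0.0939), ASO2 2 (0.217), ASO10 2 (0.357) or ASO10 3 (0.0559), with loess offsets (0.191), with regions within 25 kb (0.122) or inside the gene alone (0.262), and without the called regions (0.367).

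**Figure D5:**
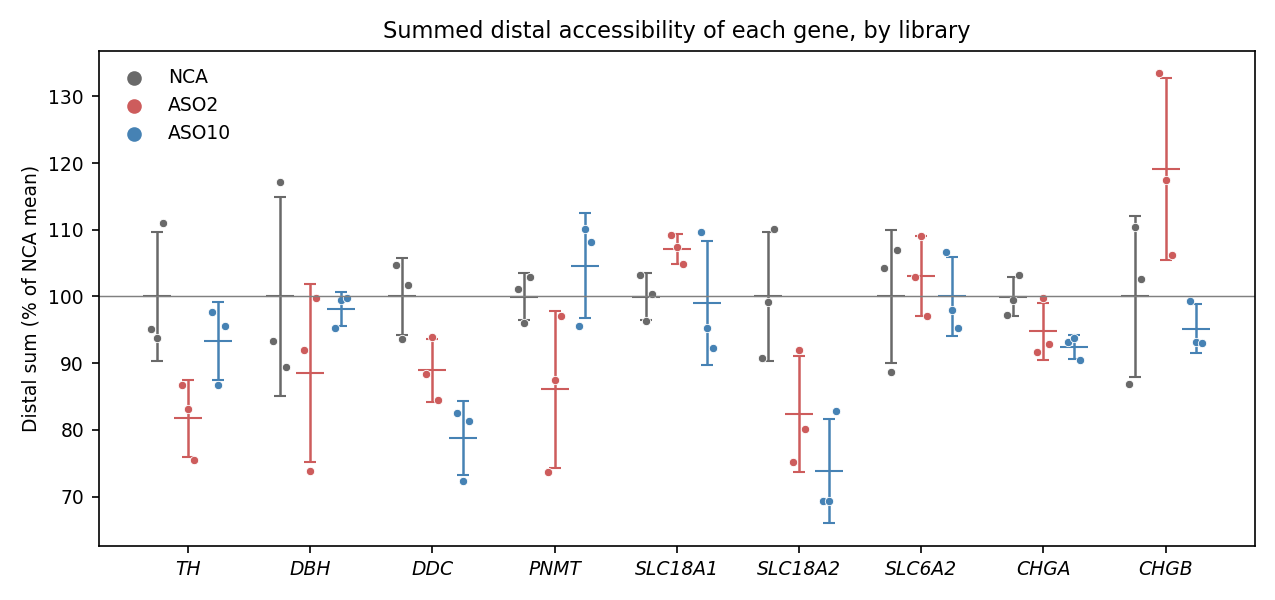
Summed distal accessibility of each gene as a percentage of its NCA mean (vertical axis, which does not start at 0), with 1 point per library, bars for the mean and whiskers for the SD of 3 libraries. The 3 ASO10 libraries of DDC and of SLC18A2 and the 3 ASO2 libraries of TH lie below their NCA libraries. The ASO10 libraries of CHGA also lie below theirs and the ASO2 libraries of SLC18A1 above theirs, though neither sum was called. How many sums of all genes separate in this way was not counted.

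TH, the rate-limiting enzyme, had 12 distal regions that summed to 47.4, 46.8 and 55.4 CPM under NCA, 43.2, 41.4 and 37.6 under ASO2, and 48.7, 43.2 and 47.7 under ASO10. All ASO2 libraries were below all NCA libraries, and ASO10 overlapped NCA. The sum fell under ASO2 by 0.30 ± 0.099 on the log2 scale (edgeR adjusted p = 0.0335), and the ASO10 value was -0.10 ± 0.099 (adjusted p = 0.682). ASO2 minus ASO10 was -0.20 ± 0.10 (adjusted p = 0.244), which missed the threshold. The ASO2 call was lost without NCA 3 (0.233), ASO2 2 (0.0661) or ASO2 3 (0.167) and within 25 kb (0.0906), and the 3 regions inside TH alone gave a value of the opposite sign, 0.14 (adjusted p = 0.873). Those 3 held 1.03, 0.723 and 1.77 CPM under NCA, so most of the sum came from outside TH. The regions on the low-coordinate side lay inside IGF2 or INS-IGF2, and the others lay beyond the high-coordinate end. Of the TH distal regions the strongest, chr11:2192962-2194014, lay 21.7 kb beyond its high-coordinate end and held 16.5 ± 3.40, 13.7 ± 2.04 and 16.7 ± 2.56 CPM under NCA, ASO2 and ASO10 (SD, n = 3).

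SLC18A2, the vesicular transporter of neurons, had 8 distal regions that summed to 34.4, 37.6 and 41.8 CPM under NCA, 28.5, 34.9 and 30.4 under ASO2, and 26.3, 26.3 and 31.4 under ASO10. All ASO10 libraries were below all NCA libraries, and 1 ASO2 library lay within the NCA range. The sum fell under ASO10 by 0.44 ± 0.12 on the log2 scale (edgeR adjusted p = 0.0169), or 26.4%, and over both ASOs by 0.36 ± 0.10 (adjusted p = 0.0130), with -0.28 ± 0.12 for ASO2 alone (adjusted p = 0.118). The ASO10 call was lost without NCA 3 (0.146), ASO10 1 (0.108) or ASO10 2 (0.107) and with regions inside the gene alone (0.281), and the call over both ASOs without NCA 3 (0.158) and inside the gene alone (0.119). Its strongest distal region, chr10:117221216-117221702, 19.7 kb before the start, held 10.7, 13.1 and 14.5 CPM under NCA, 11.5, 12.1 and 11.1 under ASO2, and 8.09, 7.51 and 8.86 under ASO10. All ASO10 libraries were below the others, at a log2 fold change of -0.65 ± 0.20 that missed the threshold (adjusted p = 0.0652) and passed with total counts (0.0461), with loess offsets (0.0409) and at a minimum of 10 counts in every library (0.0257).

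The other 6 genes gave no called sum in any comparison by edgeR; their smallest unadjusted p was 0.0487, for CHGB between ASO2 and ASO10. CHGA was at 152.9 ± 4.56 CPM in NCA libraries, 145.0 ± 6.57 with ASO2 and 141.4 ± 2.75 with ASO10 (SD, n = 3). The ASO10 libraries of CHGA were below the NCA libraries, at a log2 fold change of -0.11 ± 0.063 (edgeR adjusted p = 0.379), and with regions inside CHGA alone ASO2 was lower by -0.46 (adjusted p = 0.0281). DBH held 43.5 ± 6.51, 38.5 ± 5.80 and 42.7 ± 1.10 CPM, in the order NCA, ASO2 and ASO10. SLC18A1 held 56.0 ± 1.95, 60.0 ± 1.24 and 55.5 ± 5.22, and its ASO2 libraries were above the NCA libraries at a log2 fold change of 0.10 ± 0.088 (adjusted p = 0.545). SLC6A2 held 72.0 ± 7.15, 74.2 ± 4.32 and 72.0 ± 4.29, CHGB 17.4 ± 2.08, 20.7 ± 2.37 and 16.5 ± 0.629, and PNMT 13.1 ± 0.464, 11.3 ± 1.54 and 13.7 ± 1.03. No distal region lay inside CHGB or PNMT, and only 1 of the 13 distal regions of DBH lay inside DBH. Fits on the gene span alone therefore covered 7 of the 9 genes.

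Of their strongest single distal regions, none was called. By CPM the CHGA one, chr14:92916772-92917965, 5.3 kb before the gene, was the strongest of these. Per kb under NCA the SLC6A2 one was the strongest, at 42.3 CPM against 32.7 for CHGA. The CHGA one held 39.0 ± 4.87 CPM under NCA, 44.8 ± 1.21 under ASO2 and 36.9 ± 2.28 under ASO10. All ASO2 libraries lay above the ASO10 libraries, and the difference of 0.28 ± 0.12 had an adjusted p of 0.215 by edgeR, or 0.43 and 0.00385 with loess offsets. The SLC18A1 one, inside the gene (chr8:20163719-20164622), held 22.9 ± 2.95, 26.8 ± 2.24 and 26.2 ± 3.47 CPM in the same order. The DBH one (chr9:133683480-133684066) lies in the neighbouring gene SARDH, an enzyme of sarcosine breakdown, and held 9.38 ± 0.789, 7.05 ± 1.79 and 9.28 ± 0.752. Those of PNMT (chr17:39621967-39622452) and CHGB (chr20:5933560-5934321) held 5.90 ± 0.788 and 6.30 ± 0.788 CPM under NCA, 4.81 ± 1.18 and 5.80 ± 1.81 under ASO2, and 5.09 ± 1.26 and 6.16 ± 1.33 under ASO10.

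Around these genes, a list of 36 others covers cofactor synthesis, catecholamine breakdown, granule proteins and their processing, release, and receptors and other transporters. A start region was present for 31 of the 36, in 35 regions that all passed the filter. For ASO2 against NCA 1 was higher and 0 lower, for ASO10 0 in each direction (0 also between the ASOs), and for both ASOs 1 was higher and 0 lower. DESeq2 gave the same counts. By edgeR, 1.63%, 2.09%, 3.37% and 1.37% of all start regions were called in either direction, for ASO2, ASO10, ASO2 against ASO10 and both ASOs. At an unadjusted p under 0.05 there were 5 of the 35 regions for ASO2, 7 for ASO10, 6 between the ASOs and 5 for both ASOs, where 10.6%, 17.4%, 20.4% and 12.4% of all start regions had one. The gene called was SCG3, secretogranin III, a granin-binding protein of dense-core granules. Its start region held 11.0 ± 1.91 CPM in NCA libraries, 16.1 ± 0.297 with ASO2 and 15.7 ± 0.956 with ASO10 (SD, n = 3), higher by 0.55 ± 0.17 on the log2 scale under ASO2 (edgeR adjusted p = 0.0270) and by 0.53 ± 0.15 over both ASOs (adjusted p = 0.0209), with 0.52 ± 0.17 for ASO10 (adjusted p = 0.128). ASO2 minus ASO10 was 0.04 ± 0.16 there (adjusted p = 0.949). The ASO2 call was lost without NCA 2 (0.252), NCA 3 (0.0711), ASO2 1 (0.0824), ASO2 2 (0.0878) or ASO2 3 (0.0593), and the call over both ASOs without NCA 2 (0.283), NCA 3 (0.0774) or ASO10 2 (0.0560). The median over the 35 regions was -0.029 for ASO2 and 0.091 for ASO10, beside -0.048 and 0.088 over all start regions.

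Library totals ran from 7293565 to 10948569 counts and the range was widest within ASO2. The first principal component of all tested regions held 20.7% of the variance and put the 3 ASO2 libraries apart from the other 6. Start regions were present for 8 of 8 adrenergic marker genes, summing to 203.3 to 227.3 CPM under NCA, 183.5 to 212.4 under ASO2 and 229.7 to 249.2 under ASO10. They were present for 5 of 8 mesenchymal or Schwann genes (44.2 to 52.7 CPM under NCA, 46.2 to 55.4 under ASO2, 44.9 to 57.7 under ASO10), 2 of 5 haematopoietic, 1 of 2 hepatic and 0 of 3 epithelial genes. None of the 22 marker regions was called against NCA by edgeR or DESeq2 (unadjusted p under 0.05 in 2 for ASO2 and 4 for ASO10, against 10.6% and 17.4% of all start regions). The median log2 fold change against NCA over the adrenergic regions was -0.11 for ASO2 and 0.089 for ASO10, beside -0.048 and 0.088 over all start regions. Between the ASOs, 1 adrenergic region was lower under ASO2, where 3.37% of all start regions were called in either direction. The part of these differences in the results above was not tested.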

How the data were processed

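The authors deposited 1 table of whole-number read counts for 148797 regions in 9 libraries, with no normalization, as the values show. The submitters' processing notes name Bowtie2 2.2.6, MACS2 2.1.2, DESeq2 1.42.0, FastQC, SAMtools and GRCh38 without a role. Filters, the Tn5 shift, and whether reads, pairs or cut sites were counted are not given in the sources used here. RNA is the labelled molecule, but the protocol tags genomic DNA, which was followed.

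Gene spans came from a RefSeq gene table of GRCh38. The start site came from RefSeq promoters for 15843 of 20037 protein-coding genes (4 of the 9 members, of which 1 promoter sequence is not reported here) and either gene end stood in for the other 4194. Regions kept by filterByExpr (119417) were fitted with edgeR 4.0.16 in R 4.3.3 (TMM, robust quasi-likelihood, all 9 libraries, a term per group), with Benjamini-Hochberg adjustment and a threshold of 0.05. The common biological coefficient of variation was 23.5%. Distal sums per gene were fitted the same way with library sizes of the region table. Pearson's r used log2 CPM with a prior count of 2. The fit was tested on simulated data.

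Alternatives were DESeq2 1.42.0, RLE factors, total counts, loess offsets (limma 3.58.1, span 0.3), fits limited to the groups compared, no filter on counts, a minimum of 10 counts in each library, a replicate block, a 25 kb window, the gene span alone and each library left out. A further one, leaving out called regions, was chosen after seeing the data. Text names start regions, the strongest distal region of each gene (highest mean log2 CPM, not per kb), called regions, and the 3 smallest p per comparison. Members and lists were chosen with earlier results of these data known. Library totals of 7293565 to 10948569 counts limit the precision at regions of few counts.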

Additional observations from a re-analysis of the deposited data

Results flagged for a closer look

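Between ASO2 and ASO10, 5 results differed by the direct test (edgeR's quasi-likelihood test, Benjamini-Hochberg adjusted p under 0.05), with the difference given as ASO2 minus ASO10 on the log2 scale. The DDC region chr7:50531541-50532491 differed by 0.45 (adjusted p = 0.0411) and the DDC region chr7:50578083-50578454 by 1.68 (adjusted p = 0.0261). The SLC6A2 region chr16:55661775-55662566 differed by 0.62 (adjusted p = 0.0170) and the region of the CHGB neighbourhood at SHLD1, chr20:5865325-5865967, by 0.99 (adjusted p = 0.00874). The summed distal regions of DDC differed by 0.18 (adjusted p = 0.0407). In all 5 the ASO2 value was higher. Each of the 5 calls was lost in at least 3 of the fits that left out 1 library, without a change of sign.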

How the results depend on the processing

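Of 2366 pairs of a result and an alternative (144 results), 2203 were unchanged, 90 lost a call, 11 gained one, 56 moved and 6 reversed. Unchanged means a tested value on the same side of the threshold with the same sign, or a count of calls within 1.5 times. An uncalled value of the main fit within 1 SE of 0 was taken to have no direction. Member regions called for ASO2 against NCA (3) were 5 with total counts, loess offsets or only the groups compared, 7 at 10 counts in every library, 1 in the gene span, and 2 to 4 with 1 library left out. For ASO10 (2) they were 1 by DESeq2, without a filter or with the replicate block, and 0 to 2 with 1 left out. For ASO2 against ASO10 (4) they were 2 by DESeq2 or in the gene span and 0 to 4 with 1 left out. For both ASOs (2) they were 1 with total counts, without a filter or in the gene span, 4 with loess offsets, and 0 to 2 with 1 left out. Genes called on distal sums for ASO2 (2) were 1 with the replicate block, within 25 kb or without called regions and 0 to 2 with 1 left out; for ASO10 (2) and for both ASOs (2) they were 1 in the gene span and 1 to 2 with 1 left out. For ASO2 against ASO10 (1) they were 0 with loess offsets, the replicate block, 25 kb, the gene span or without called regions, and 0 to 1 with 1 left out. Reversed values, none of them called, were the TH sum in the gene span (0.14 for ASO2, 0.42 for ASO10, 0.28 for both), the PNMT sum for ASO2 within 25 kb (0.13), the CHGB sum for ASO2 without called regions (-0.094), and the DBH sum for both ASOs without NCA 2 (0.029; range over left-out libraries -0.18 to 0.029). The cause was not tested.

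Replicate numbers did not pair the libraries: deviations of same-numbered libraries correlated at -0.036 to 0.013 over 9 pairs. With the replicate block the SLC6A2 region inside the gene lost its ASO2 call (0.52, edgeR adjusted p = 0.0578), the DDC region chr7:50531541-50532491 its ASO10 call (-0.50, 0.0578) and its difference between the ASOs (0.44, 0.0643), and the DDC sum its ASO2 call (-0.17, 0.0681) and its difference (0.18, 0.0601). Depth limits the weak regions: 13 failed the filter.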
